A study of Homo sapiens with 27 samples.

Results

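The genes described here encode focal adhesion kinase (FAK), the target of the inhibitor used in this experiment, its paralog and 8 proteins of the adhesion plaque. They are the kinases *PTK2*, *PTK2B* and *SRC*, the scaffolds *PXN* and *BCAR1*, the linkers *TLN1*, *VCL*, *TNS3* and *ILK*, and *ZYX*. The genes were chosen by symbol, and all 10 were found among the 61533 genes of the count table. The adhesion plaque is the protein assembly on the inner side of a cell's contacts with the matrix. Talin and kindlin bind the tails of integrins, vinculin ties talin to actin filaments, and FAK is recruited there, phosphorylates itself and offers a docking site to SRC, after which both kinases phosphorylate paxillin and p130Cas. In uveal melanoma, a cancer of the eye's pigment cells driven mostly by mutant Gαq or Gα11, FAK lies downstream of the Gαq effector TRIO and its activity feeds into YAP.

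RNA was sequenced from 92.1 cells, a *GNAQ* mutant uveal melanoma line, passaged in the FAK inhibitor VS-4718 at 100 nM (FAKi) or in the solvent DMSO, with medium and treatment renewed throughout. The 27 mRNA libraries are 9 groups with 3 replicates each, DMSO alone at day 0 and both treatments at days 3, 7, 14 and 21. The design asks how expression in cells held under the inhibitor departs from that in cells passaged beside them. A single line and a single dose were used, and the p-values measure the spread between these libraries. By the study's methods the whole experiment was repeated as biological replicates and each condition was also plated in replicate, and the labels do not say which of these a replicate number stands for.

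The libraries held 12161994 to 43651551 counts, and every member had at least 82 counts in every library. At days 3 and 14 each DMSO library was deeper than each FAKi library. Mitochondrial genes took 5.49% to 26.97% of the counts, with 5.49% to 9.75% in DMSO and 10.7% to 11.2% in FAKi at day 21. All 7 melanocytic markers had a median over 1 CPM (counts relative to library size, with TMM factors over the 27 libraries), with *DCT* lowest at 10.3 CPM, while 0 of 4 immune, 0 of 3 endothelial and 0 of 3 epithelial markers did. Of 5 fibroblast markers, *COL1A1* and *LUM* had medians of 5.388 and 5.003 CPM, and *COL3A1* and *DCN* had medians of 0. Summed melanocytic markers were 14886 to 14951 CPM in FAKi and 11729 to 13975 CPM in DMSO at day 21, and the part of this difference in the results was not tested. Some libraries stood apart. In the root mean square of log2 CPM differences across 16982 genes, DMSO day 21 replicate 3 was 0.630 and 0.656 from its replicates, which were 0.242 from each other, and 0.278 from DMSO day 3 replicate 3. Its share of mitochondrial counts was 9.75%, against 5.49% in each of the others, and its column label carries an extra digit in the day while its title gives day 21. FAKi day 7 replicate 1 was 0.624 and 0.657 from its replicates but 0.170 from FAKi day 14 replicate 1, the closest of all pairs. The counts of that pair differed with 1.66 times the variance of counting noise, against 3.13 to 274 times in pairs of replicates. DMSO day 3 replicate 1 was 0.517 and 0.726 from its replicates. It lay 0.229 from DMSO day 0 replicate 3 and had 18.1% mitochondrial counts, against 16.8% to 18.7% in FAKi at day 3. DMSO day 3 replicates 2 and 3 had 9.59% and 8.61% and lay 0.330 and 0.278 from DMSO day 21 replicate 3, so which libraries of the group are unusual cannot be told apart.

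The members covered a broad range of expression. Levels of different genes are compared only as RPKM, which divides the CPM by the length of the counted transcript in kilobases. *ZYX* (zyxin, a LIM protein of plaques and stress fibers) had the highest level with 33.8 ± 7.03 RPKM (SD, n = 27 libraries), followed by *ILK* (integrin-linked kinase, a pseudokinase scaffold bound to PINCH and parvin) with 29.6 ± 4.52 RPKM and *PTK2* with 28.6 ± 3.86 RPKM. The order among these 3 was not stable, since *ZYX* was above *ILK* in 18 and *ILK* above *PTK2* in 12 of 27 libraries. *TLN1* (talin, which activates integrins) was at 21.2 ± 3.57 RPKM, below *PTK2* in 26 libraries and above *VCL* in all 27. *VCL* (vinculin), *SRC* and *PXN* (paxillin, the scaffold that FAK and vinculin bind) lay close together at 12.2 ± 2.43, 11.6 ± 1.97 and 11.5 ± 1.87 RPKM. *TNS3* (tensin 3, which binds integrin tails and actin) was at 7.68 ± 1.74 RPKM and *BCAR1* (p130Cas, a substrate of FAK and SRC) at 3.66 ± 0.879 RPKM. *PTK2B*, the FAK paralog PYK2, was lowest with 1.98 ± 0.438 RPKM, below *BCAR1* in every library. Among 16982 genes with a mean of at least 1 CPM, *ZYX* stood at percentile 88.3, *PTK2* at 86.3 and *PTK2B* at 23.5. The range between the lowest and the highest library of a member went from 1.63-fold for *PTK2* to 2.78-fold for *PTK2B*.

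The promoter windows of *VCL*, *TLN1* and *ILK* are shown because *VCL* and *TLN1* had the largest decreases over time in DMSO, described further on, and *ILK* was the member called in the other direction. They are the RefSeq windows of GRCh38.p14 from 250 bases before to 50 bases after the start, with the coding strand read 5′ to 3′. *VCL* is at chr10:73997866-73998165 on the plus strand, *TLN1* at chr9:35732146-35732445 on the minus strand and *ILK* at chr11:6603524-6603823 on the plus strand. Capitals mark a TEAD core, GGAATG, in *VCL* and an E-box, CACGTG, in *ILK*, where TEAD is the DNA-binding partner of YAP and the E-box is bound by basic helix-loop-helix factors such as MITF.
VCL: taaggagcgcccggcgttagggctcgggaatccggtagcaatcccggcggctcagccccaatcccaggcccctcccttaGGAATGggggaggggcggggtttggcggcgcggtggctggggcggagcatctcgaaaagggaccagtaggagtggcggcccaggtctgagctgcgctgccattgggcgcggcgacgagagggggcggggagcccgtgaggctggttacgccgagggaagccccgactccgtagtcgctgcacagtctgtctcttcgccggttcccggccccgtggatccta
TLN1: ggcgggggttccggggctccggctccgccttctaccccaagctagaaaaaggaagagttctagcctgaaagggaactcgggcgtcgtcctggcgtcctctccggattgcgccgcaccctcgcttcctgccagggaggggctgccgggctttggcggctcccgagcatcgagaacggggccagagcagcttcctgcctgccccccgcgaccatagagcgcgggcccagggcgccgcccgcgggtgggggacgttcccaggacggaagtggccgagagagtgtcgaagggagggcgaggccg
ILK: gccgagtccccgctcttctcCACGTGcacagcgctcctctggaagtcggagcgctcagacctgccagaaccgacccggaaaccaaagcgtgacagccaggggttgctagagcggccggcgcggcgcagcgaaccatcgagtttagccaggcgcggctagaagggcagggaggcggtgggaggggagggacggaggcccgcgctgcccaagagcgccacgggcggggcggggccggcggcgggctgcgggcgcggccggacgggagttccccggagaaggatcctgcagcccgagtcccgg
Both strands were searched. The TEAD core begins at position -171 relative to the start of *VCL*, and 14% of all 35116 windows hold it. Only 7 members were searched, with 14 windows in all, and the other members were left out of the search. Of these 14 windows 2 held the TEAD core, in *PXN* and *VCL*, a share close to that of all windows. The E-box begins at position -230 relative to the start of *ILK* and is in 7.26% of all windows and in 1 of the 14 member windows. The CArG box of serum response factor is in 1.29% of windows and in none of the 7 members. A match is a description of the letters and not of binding.

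In hg38 the members lie on 8 chromosomes. *PTK2* (ENSG00000169398.19) and *PTK2B* (ENSG00000120899.18) are both on chromosome 8, from 140657900 to 141001233 on the minus strand and from 27311482 to 27459390 on the plus strand. *SRC* (ENSG00000197122.13) lies on chromosome 20 from 37346109 to 37406050, *PXN* (ENSG00000089159.17) on chromosome 12 from 120210451 to 120265718 and *BCAR1* (ENSG00000050820.17) on chromosome 16 from 75229031 to 75265215. *TLN1* (ENSG00000137076.21) spans 35696948 to 35732195 of chromosome 9, *VCL* (ENSG00000035403.18) 73998114 to 74121363 of chromosome 10 and *ILK* (ENSG00000166333.14) 6603816 to 6610870 of chromosome 11. *TNS3* (ENSG00000136205.17) and *ZYX* (ENSG00000159840.16) are both on chromosome 7, from 47275154 to 47582111 and from 143381345 to 143391111. Some exons of the members are shared with genes of the opposite strand, and the strand setting of the counting is not given in the sources used here. By GENCODE 44, such genes cover 88.3% of the exon bases of *ILK* (*TAF10* and 2 others), 36.9% of *PXN* (*PXN-AS1* and 1 other), 17.1% of *VCL* (*AP3M1*), 3.68% of *ZYX* and 0% in the other 6 members. The values of *ILK*, *PXN* and *VCL* are therefore uncertain in this respect.

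**Figure D1:**
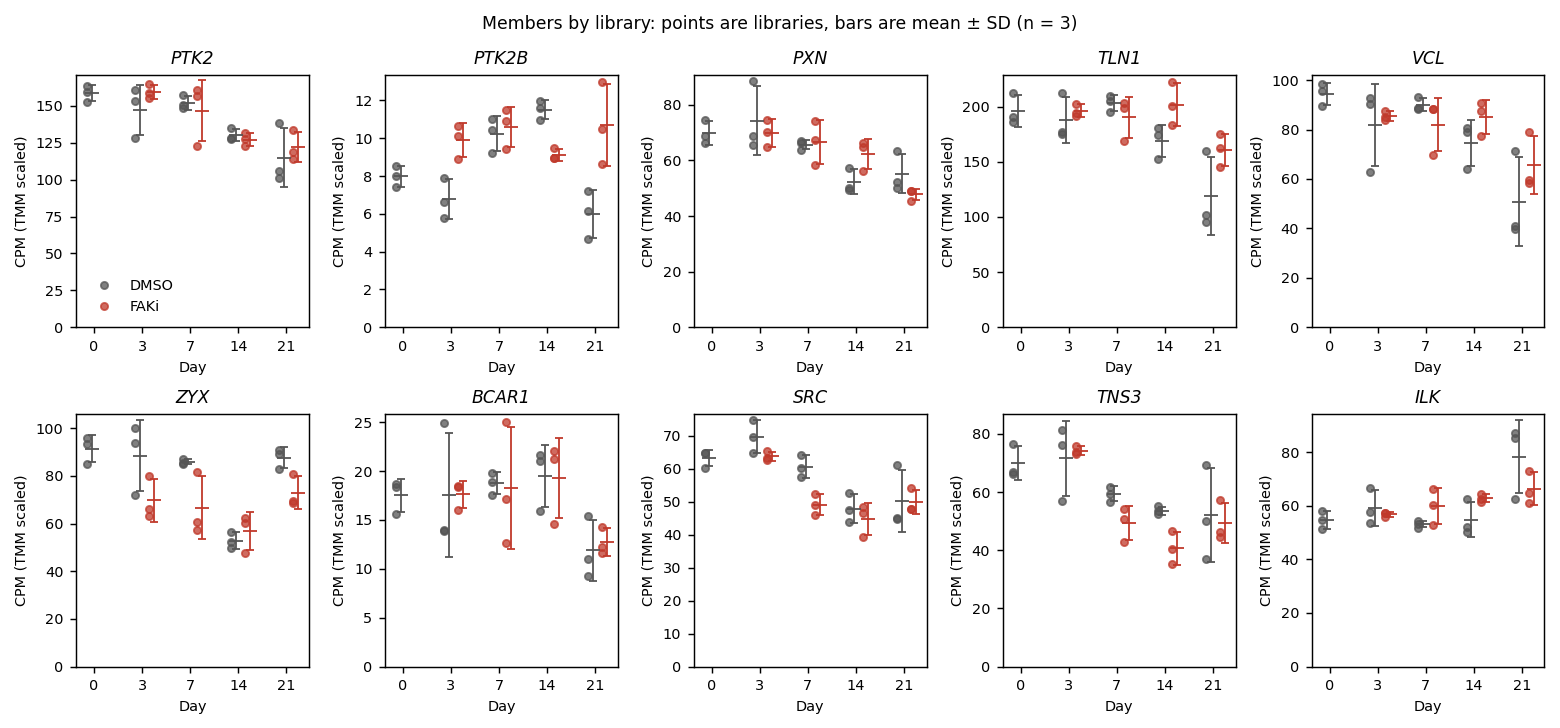
CPM of the 10 members (vertical axes, from 0) by day (horizontal axes) in DMSO (grey) and FAKi (red), with a point per library and bars for the mean ± SD of 3 replicates. *PTK2* overlaps between treatments on all 4 days, while *PTK2B* in FAKi lies above DMSO at days 3 and 21 and below it at day 14.

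*PTK2* itself differed little between FAKi and DMSO. At day 3 its level was 165, 155 and 159 CPM in FAKi and 153, 161 and 128 CPM in DMSO. At day 7 it was 123, 157 and 161 CPM in FAKi and 158, 151 and 148 CPM in DMSO, with replicate 1, which stood apart, as the low FAKi library. The levels at day 14 were 128, 123 and 131 CPM in FAKi and 128, 135 and 129 CPM in DMSO, and at day 21 they were 114, 119 and 134 CPM in FAKi and 106, 101 and 138 CPM in DMSO. The ranges of both treatments overlapped on each day. The log2 fold changes, FAKi over DMSO, were 0.13, -0.06, -0.04 and 0.13 in the order of days (standard errors 0.15, 0.14, 0.09 and 0.16), and *PTK2* was not called on any day. Averaged over the 4 days the log2 fold change was 0.04, with a 95% interval from -0.11 to 0.18, that is between 0.929-fold and 1.13-fold. These are RNA levels, and kinase activity was not measured here.

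*PTK2B* was the member that differed most between treatments, and its direction was not the same at every day. PYK2 is a calcium-responsive kinase with the domain layout of FAK. At day 3 its level was 8.89, 10.1 and 10.6 CPM in FAKi and 7.92, 5.80 and 6.62 CPM in DMSO, so the groups did not overlap. At day 7 the libraries overlapped, with 9.42, 11.5 and 10.9 CPM in FAKi and 11.0, 9.23 and 10.4 CPM in DMSO. At day 14 every FAKi library (9.50, 8.94 and 8.93 CPM) was below every DMSO library (11.58, 11.97 and 10.96 CPM). At day 21 the order was turned around, with 8.65, 10.5 and 13.0 CPM in FAKi against 6.13, 4.66 and 7.22 CPM in DMSO. The log2 fold changes were 0.55 at day 3 (standard error 0.20, adjusted p = 0.144), 0.05 at day 7 (0.16, adjusted p = 0.952), -0.34 at day 14 (0.16, adjusted p = 0.205) and, last, 0.88 at day 21 (0.23, adjusted p = 0.0439), by the quasi-likelihood test of edgeR and Benjamini-Hochberg adjustment over all genes tested. The difference at day 21 was thus the only daily difference of *PTK2B* past the threshold of 0.05, with a 95% interval of 0.36 to 1.40, or 1.28-fold to 2.64-fold. It was lost when any of DMSO replicates 1 and 2 or FAKi replicates 1, 2 and 3 was left out (log2 fold change 0.73 to 1.01, adjusted p between 0.0779 and 0.180), and it was 1.04 with an adjusted p of 0.000185 without DMSO day 21 replicate 3. At day 3 *PTK2B* was called without DMSO day 3 replicate 1, with a log2 fold change of 0.69 and an adjusted p of 0.0149, which rests on the remaining pair of DMSO libraries, those with the lower mitochondrial shares. It was not called without replicate 2 or replicate 3 (0.45 and 0.53, adjusted p = 0.317 and 0.212).

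The level of *PTK2B* relative to *PTK2*, both in RPKM, gives the balance of the paralogs within each library and does not depend on the scaling of libraries. In DMSO *PTK2B* was 5.29% ± 0.306 of *PTK2* at day 0 (SD, n = 3 here and below). It was 4.89% ± 0.948 in DMSO and 6.53% ± 0.741 in FAKi at day 3, while at day 7 it was 7.07% ± 0.547 and 7.64% ± 0.463. In DMSO the share was 9.28% ± 0.295 at day 14 and 5.48% ± 0.626 at day 21. In FAKi it was 7.55% ± 0.351 at day 14 and 9.15% ± 1.10 at day 21. The groups of day 7 overlapped and those of days 3, 14 and 21 did not. An exact permutation test of 3 libraries against 3 cannot give a two-sided p below 0.1, so these shares are given without a test.

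**Figure D2:**
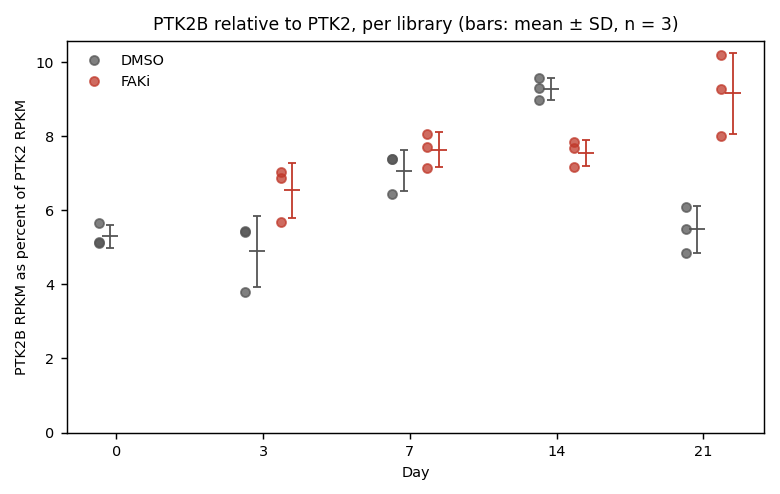
*PTK2B* as a percent of *PTK2*, both in RPKM (vertical axis, from 0), by day (horizontal axis) in DMSO (grey) and FAKi (red), with a point per library and bars for the mean ± SD of 3 replicates. In DMSO the mean went from 5.29% at day 0 to 9.28% at day 14 and was 5.48% at day 21, and in FAKi it was highest at day 21 with 9.15%.

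*SRC*, the tyrosine kinase that FAK docks, was lower in FAKi in every library of day 7, with 49.0, 52.2 and 45.9 CPM against 57.5, 64.2 and 60.2 CPM in DMSO. The log2 fold change was -0.31 with a standard error of 0.12, but the adjusted p was 0.527. On the other days its groups overlapped and its log2 fold changes ran from -0.12 to 0.04. The scaffolds showed no call either. *PXN* was at 66.2, 64.9 and 56.2 CPM in FAKi and 49.3, 50.3 and 57.5 CPM in DMSO at day 14 (log2 fold change 0.25, standard error 0.11, adjusted p = 0.155), and at day 21 every FAKi library (45.4, 49.2 and 48.9 CPM) was below every DMSO library (52.3, 50.1 and 63.3 CPM), at a log2 fold change of -0.16 and an adjusted p of 0.448. *BCAR1* had log2 fold changes between -0.04 and 0.14 and overlapping groups on all 4 days. Its replicates were spread widely at days 3 and 7, up to 24.9 CPM in DMSO day 3 replicate 1 and 25.05 CPM in FAKi day 7 replicate 1.

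Among the linkers, *TNS3* was lower in FAKi at day 14. Its level was 40.4, 46.5 and 35.1 CPM in FAKi and 52.3, 55.1 and 53.5 CPM in DMSO, without overlap. The log2 fold change was -0.40 with a 95% interval from -0.64 to -0.16 (adjusted p = 0.0240 in edgeR). The call was lost without DMSO day 14 replicate 2 or 3 and without FAKi day 14 replicate 1 or 3 (adjusted p between 0.0552 and 0.108), and with all 27 libraries fitted together (adjusted p = 0.151). At day 7 *TNS3* was also lower in every FAKi library, with 42.9, 54.2 and 50.6 CPM against 56.7, 59.5 and 61.9 CPM, at a log2 fold change of -0.27 and an adjusted p of 0.601. At days 3 and 21 the groups overlapped, with log2 fold changes of 0.07 and -0.03.

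*TLN1* and *VCL* had their largest differences at day 21, and both depended on a single library. *TLN1* was at 145, 162 and 175 CPM in FAKi and 102, 95.5 and 160 CPM in DMSO. *VCL* was at 58.2, 59.5 and 79.1 CPM in FAKi and 39.9, 41.1 and 71.5 CPM in DMSO. In both genes DMSO replicate 3 lay well above the other DMSO libraries and inside the range of FAKi. The log2 fold changes were 0.48 for *TLN1* (95% interval -0.01 to 0.96, adjusted p = 0.160) and 0.41 for *VCL* (-0.16 to 0.99, adjusted p = 0.281). At day 14 every FAKi library of *TLN1* (200, 222 and 183 CPM) was above every DMSO library (153, 180 and 174 CPM), with a log2 fold change of 0.25 and an adjusted p of 0.123. *ILK* overlapped between treatments on every day, and its log2 fold changes ran from -0.19 at day 21 to 0.19 at day 14. The overlapping gene *TAF10* had log2 fold changes between -0.25 and 0.07.

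*ZYX* had negative estimates at days 3, 7 and 21. At day 7 it was at 57.2, 81.7 and 60.8 CPM in FAKi and 87.1, 84.96 and 85.6 CPM in DMSO, and at day 21 at 68.6, 80.8 and 69.4 CPM in FAKi and 82.8, 89.2 and 91.1 CPM in DMSO, without overlap on either day. The log2 fold changes were -0.33, -0.37, 0.10 and -0.22 in the order of days, none of which was called. Averaged over the 4 days the log2 fold change was -0.21, with a 95% interval from -0.37 to -0.05 and an adjusted p of 0.0584, just above the threshold of 0.05. This mean effect of *ZYX* was called in 7 of 32 alternative fits, among them DESeq2 and 3 of the 24 fits that left out a single library.

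**Figure D3:**
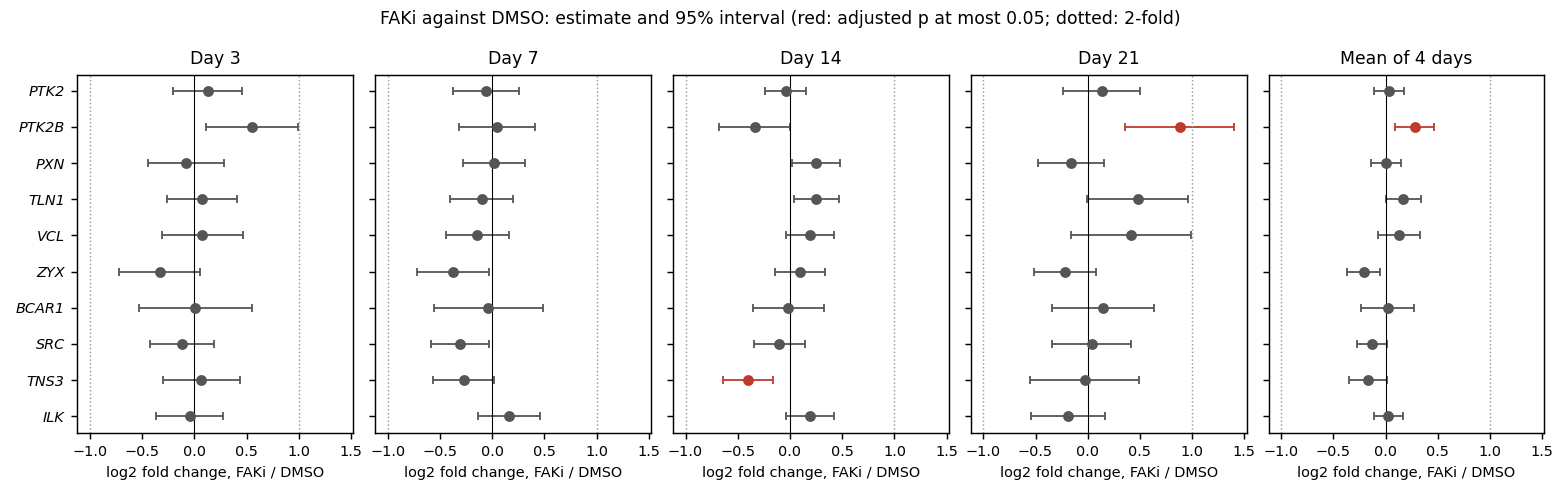
Log2 fold changes of FAKi over DMSO (horizontal axes) for the 10 members at days 3, 7, 14 and 21 and for the mean of the 4 days, with 95% intervals from edgeR as bars, dotted lines at 2-fold, and red for an adjusted p of at most 0.05. The red points are *TNS3* at day 14 (-0.40), *PTK2B* at day 21 (0.88) and *PTK2B* in the mean (0.28), and each estimate lies within 2-fold.

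Counted over the members, few daily differences passed the test. At day 3 edgeR called 0 of 10 members at an adjusted p of at most 0.05, against 0% of all 22846 genes tested. An unadjusted p under 0.05 was found for 1 member, *PTK2B*, against 23.8% of all genes, and DESeq2 called 0 members, against 8.05%. At day 7 edgeR called 0 of 10 members against 0.0269% of all genes, with an unadjusted p under 0.05 for *ZYX* and *SRC*, against 8.77% of all genes, and DESeq2 called 0 members, against 0.942%. Without FAKi day 7 replicate 1 edgeR still called 0 members, against 2.96% of all genes. At day 14 the call was *TNS3*, 1 of 10 members, against 12.4% of all genes. At day 21 it was *PTK2B*, 1 of 10 members, against 11.6% of all genes. Both shares are near those of all genes. Asking in addition for a change over 2-fold left 0 members on every day, against 0%, 0.0269%, 1.66% and 5.28% of all genes in the order of days. Of the 40 daily estimates all were within 2-fold, and the 95% interval was within 2-fold for 39, the exception being *PTK2B* at day 21. The median log2 fold change of the members was 0.04, -0.08, 0.04 and 0.08 at days 3, 7, 14 and 21, against -0.02, 0.01, -0.01 and 0.01 over all genes.

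The libraries of the 2 treatments did not overlap in 1 member at day 3 (*PTK2B*), against 30.9% of all genes, in 4 members at day 7 (*VCL*, *ZYX*, *SRC* and *TNS3*, all lower in FAKi), against 16.7%, in 3 at day 14 (*TLN1* higher, *PTK2B* and *TNS3* lower), against 28.9%, and in 3 at day 21 (*PTK2B* higher, *PXN* and *ZYX* lower), against 35.4%. In all, 11 of 40 pairs of groups did not overlap, 3 with FAKi above and 8 with FAKi below. The direction was not counted over all genes, so this split has no reference and only describes the members.

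At day 21 same-numbered libraries deviated together, while the meaning of the replicate number is not known. The deviations of same-numbered FAKi and DMSO libraries from their group means correlated across genes with r of 0.430, 0.135 and 0.650. The deviations within a group cancel in sum, so these values are not independent of each other. DMSO replicate 3, which stood apart, enters all of them in this way, so they do not establish a pairing. Replicate 3 was the highest library of both treatments in *PTK2*, *PTK2B*, *TLN1*, *VCL*, *BCAR1*, *SRC* and *TNS3*, and the lowest of both in *ILK*. With the replicate number as a block, 3 members were called at day 21, against 29.9% of all genes. These were *PTK2B* (log2 fold change 0.87, adjusted p = 0.00452), *TLN1* (0.52, adjusted p = 0.0187) and *VCL* (0.46, adjusted p = 0.0216). Without DMSO day 21 replicate 3 and without a block, 6 members were called, against 48.5% of all genes. *PTK2B* (1.04), *TLN1* and *VCL* (both 0.77), *BCAR1* (0.39) and *PTK2* (0.31) were then higher and *ILK* (-0.31) lower in FAKi, as log2 fold changes. Without DMSO day 3 replicate 1, day 3 gave 1 member, *PTK2B*, against 32.7% of all genes.

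In the mean of the 4 days *PTK2B* was the member called by edgeR. It was higher in FAKi by a mean log2 fold change of 0.28 (95% interval 0.09 to 0.47, adjusted p = 0.0392), which is 1.21-fold. This mean joins daily values that differ in sign, 0.55, 0.05, -0.34 and 0.88 in the order of days. *PTK2B* was 1 of 10 members called, against 15.7% of all genes. With replicate number within day as a block, *PTK2B* (0.28, adjusted p = 0.0497) and *ZYX* (-0.22, adjusted p = 0.0436) were called, against 17.4% of all genes. The call of *PTK2B* was lost in 16 of 24 fits that left out a single library, over which its log2 fold change lay between 0.24 and 0.32. Without DMSO day 21 replicate 3 the called members were *PTK2B*, *TLN1* (0.24) and *VCL* (0.22), as mean log2 fold changes, against 24.6% of all genes. Without both FAKi day 7 replicate 1 and DMSO day 3 replicate 1 only *PTK2B* was called (0.33, adjusted p = 0.00934), against 22.6% of all genes.

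The difference between days was tested for itself. From day 3 to day 21 the effect of FAKi changed significantly in 0 of 10 members by edgeR, against 2.93% of all genes. There were 0 members with an unadjusted p under 0.05, against 19.1% of all genes, and DESeq2 also called 0, against 7.41%. The estimates for *PTK2B* and *TLN1* were 0.31 and 0.38 on the log2 scale. The comparison of day 14 with day 21 was added after the daily values had been seen. It called 1 of 10 members, against 12.7% of all genes. The log2 fold change of *PTK2B* was higher at day 21 than at day 14 by 1.19 (95% interval 0.63 to 1.76, adjusted p = 0.00883), and this was called in each of 12 fits that left out a library, where it ran from 1.04 to 1.34. Since the comparison was chosen for this gene's daily values, it describes the turn in direction and is not independent support for it.

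In DMSO alone, 4 of 10 members were lower after 21 days of passage than at day 0 and 1 was higher. *PTK2* was at 164, 153 and 160 CPM at day 0 against 106, 101 and 138 CPM after 21 days. *TLN1* was at 190, 186 and 213 CPM at day 0, against 102, 95.5 and 160 CPM at day 21. *VCL* was at 98.4, 89.5 and 95.4 CPM at day 0, against 39.9, 41.1 and 71.5 CPM at day 21. In these 3 genes replicate 3 was the day 21 library closest to day 0. *BCAR1* went from 15.6, 18.3 and 18.7 CPM to 11.0, 9.32 and 15.4 CPM. *ILK* went the other way, from 54.8, 58.1 and 51.5 CPM to 85.3, 87.2 and 62.5 CPM. The log2 fold changes, day 21 over day 0, were -0.90 for *VCL* (standard error 0.22, adjusted p = 0.0136), -0.72 for *TLN1* (0.20, adjusted p = 0.0204), -0.56 for *BCAR1* (0.20, adjusted p = 0.0497), -0.47 for *PTK2* (0.15, adjusted p = 0.0322) and 0.51 for *ILK* (0.15, adjusted p = 0.0269), as fitted by edgeR.

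These were 5 of 10 members called, 4 lower and 1 higher, against 44.9% of all genes, so the share of members was close to that of the table. The median of the members was -0.42, against 0.03 over all genes. *ZYX* had the estimate nearest to 0, a log2 fold change of -0.06 with a 95% interval from -0.33 to 0.21. In DMSO over time the overlapping genes moved similarly to their partners. By edgeR the log2 fold changes were 0.55 for *TAF10* (adjusted p = 0.0526), the partner of *ILK*, and -0.87 for *AP3M1* (adjusted p = 0.0114), the partner of *VCL*. *PXN-AS1*, the partner of *PXN*, was at -0.25 (adjusted p = 0.157 in edgeR). For FAKi over DMSO at day 21, *AP3M1* was at 0.002 against 0.41 for *VCL*. There *TAF10* was at -0.25 against -0.19 for *ILK*, and *PXN-AS1* at -0.18 against -0.16 for *PXN*. The part of these genes in the members' values was not tested. The result in DMSO over time rested on the libraries. Without DMSO day 21 replicate 3, 9 of 10 members were called, all but *ZYX*, against 69.7% of all genes, and the log2 fold changes were -1.24 for *VCL*, -0.78 for *BCAR1* and -0.63 for *PTK2*. Without any of the other 5 libraries, 0 or 1 member was called, the latter always *VCL*, against 24.4% to 29.1% of all genes. Mitochondrial genes took 17.0% to 18.8% of the counts at day 0 and 5.49% to 9.75% at day 21, and the part of this in the result was not tested. Time, passage and density of the culture cannot be told apart in this comparison.

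**Figure D4:**
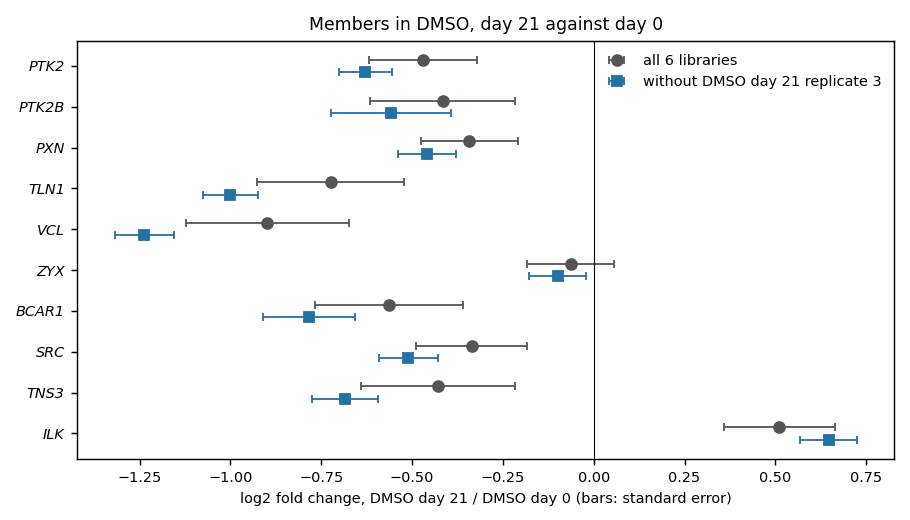
Log2 fold changes of the members in DMSO, day 21 over day 0 (horizontal axis), with standard errors as bars, from all 6 libraries (grey circles) and without DMSO day 21 replicate 3 (blue squares). *ILK* is to the right of 0 and the other 9 members to the left, and *VCL* is the farthest left at -0.90 with all libraries and -1.24 without replicate 3.

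Across the 9 groups the level of *PTK2* was highest in FAKi at day 3 with 160 ± 4.68 CPM and lowest in DMSO at day 21 with 115 ± 20.2 CPM (SD, n = 3 each), a 1.39-fold range. Sorted by mean, the order was FAKi day 3, DMSO day 0, DMSO day 7, DMSO day 3, FAKi day 7, DMSO day 14, FAKi day 14, FAKi day 21 and DMSO day 21, and none of the 8 neighboring pairs was free of overlap. For *PTK2B* the range was 1.92-fold, from 11.5 ± 0.507 CPM in DMSO at day 14 to 6.002 ± 1.29 CPM in DMSO at day 21, and of 8 neighboring pairs only FAKi day 14 and DMSO day 0 did not overlap. *TNS3* ran from 74.3 ± 1.52 CPM in FAKi at day 3 to 40.7 ± 5.71 CPM in FAKi at day 14. *ZYX* was lowest at day 14 in both treatments, with 52.9 ± 3.37 CPM in DMSO and 56.8 ± 7.97 CPM in FAKi, against 66.6 to 91.4 CPM as means of the other groups.

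The members' patterns over the 9 group means of log2 CPM were compared with that of *PTK2*, as a description over groups that share a day or a treatment. The Pearson correlation with *PTK2* was 0.85 for *VCL*, 0.82 for *PXN*, 0.78 for *TLN1*, 0.74 for *TNS3*, 0.74 for *SRC*, 0.64 for *BCAR1*, 0.25 for *ZYX* and -0.81 for *ILK*. *PTK2B* had a mean below 10 CPM and was not compared. Among 10486 genes with a mean of at least 10 CPM, the patterns most like that of *PTK2* were those of *DOCK1* (r = 0.995), which encodes a Rac exchange factor recruited through p130Cas and CRK, *PREPL* (0.989), *ZNF317* (0.983), *ACVR1B* (0.980), an activin receptor, and *NFE2L1* (0.978), a transcription factor of proteasome genes.

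Other genes of the plaque were taken from a list of 50, of which 45 to 47 could be tested in each comparison. Over the mean of the 4 days, 10 of 47 were called, or 21.3% against 15.7% of all genes, 6 higher and 4 lower in FAKi, and the median log2 fold change of the list was -0.000198, against 0.01 over all genes. Higher in FAKi were *TLN2* (talin 2, mean log2 fold change 0.60), *ASAP1* (an Arf GTPase-activating protein, 0.52), *NEDD9* (a relative of p130Cas, 0.47), *LIMD1* (a LIM protein of the zyxin family, 0.36), *RSU1* (a partner of PINCH, 0.30) and *GIT2* (an Arf regulator that binds paxillin, 0.26). Lower were *AJUBA* (a LIM protein of the zyxin family, -0.59), *ENAH* (an actin elongation factor that binds zyxin, -0.33), *PARVB* (β-parvin, a partner of ILK, -0.29) and *FLNC* (filamin C, -0.29). *GIT2* is given beside the count and fell outside the rule for named genes. Daily estimates of *TLN2*, *ASAP1*, *NEDD9*, *LIMD1* and *RSU1* were positive on all 4 days, though that of *LIMD1* was 0.02 at day 21. Those of *AJUBA* were negative on all 4 days. The means of *ENAH*, *PARVB* and *FLNC* join days that differ in sign. *ENAH* was at 0.34 at day 3, and *PARVB* and *FLNC* were at 0.17 and 0.04 at day 14. The paralogs of *TLN1* and *BCAR1* passed the test where these members did not (mean log2 fold changes 0.17 with an adjusted p of 0.154 and 0.02 with an adjusted p of 0.9755 in edgeR), and the difference between paralogs was not tested. Leaving out each library gave 9 to 16 calls in the list, against 11.5% to 24.6% of all genes. The 16 of 47 came without DMSO day 21 replicate 3, against 24.6% of all genes. The 10 called genes were called in each of these 24 fits, except that the call was lost in 1 of them for *FLNC* and in 2 for *GIT2*. Without both FAKi day 7 replicate 1 and DMSO day 3 replicate 1 the call of *ENAH* was lost (-0.23, adjusted p = 0.0531).

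**Figure D5:**
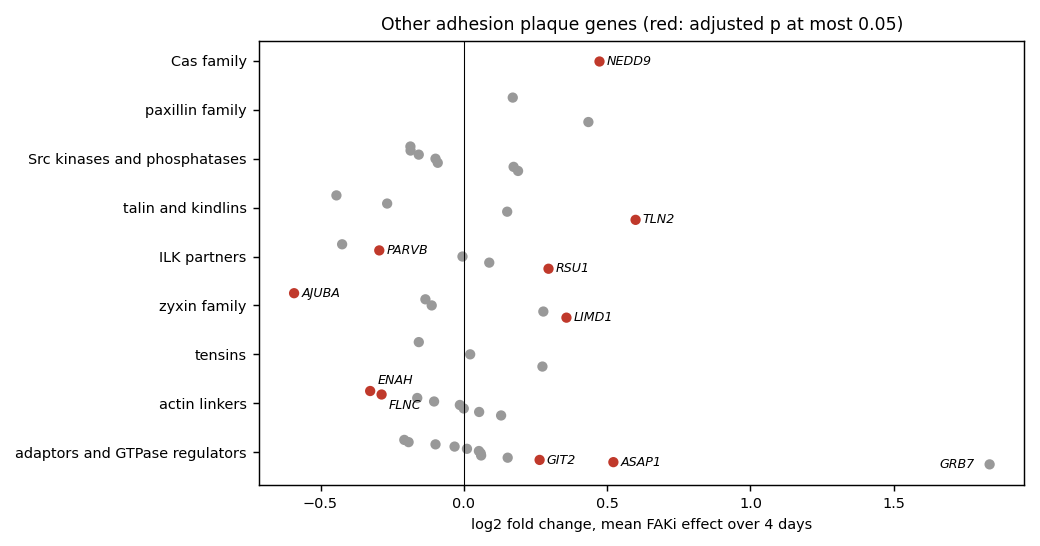
Mean log2 fold change of FAKi over DMSO across the 4 days (horizontal axis) for 47 other plaque genes in 9 groups (vertical axis), with red for an adjusted p of at most 0.05 from edgeR. The 10 red genes lie between -0.59 (*AJUBA*) and 0.60 (*TLN2*), and *GRB7*, farthest right at 1.83 and not called, had a mean of 0.0961 CPM.

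At day 3 edgeR gave 0 of 45 calls in the list, against 0% of all genes. An unadjusted p under 0.05 was found for 12 of them, against 23.8% of all genes. Without DMSO day 3 replicate 1 there were 17 calls, against 32.7%. At day 7 it gave 0 of 45, against 0.0269%, with an unadjusted p under 0.05 for 8, against 8.77%. At day 14 there were 10 of 45 calls, or 22.2% (4 higher, 6 lower), against 12.4% of all genes. At day 21 there were 4 of 46, or 8.7% (3 higher, 1 lower), against 11.6%. *AJUBA* was lower at day 14, with 11.2 ± 1.51 CPM in FAKi against 24.6 ± 1.49 CPM in DMSO, a log2 fold change of -1.13 with an adjusted p of 1.68e-05. *FLNA* (filamin A) was chosen after its value was seen and was higher in FAKi at day 14, by 0.98 on the log2 scale. At day 21 *LPXN* (leupaxin, of the paxillin family) was at 3.79, 4.50 and 3.01 CPM in FAKi and 0.887, 0.795 and 1.16 CPM in DMSO, without overlap, a log2 fold change of 2.03 (adjusted p = 0.00750) on 14 to 105 counts per library. *LPP*, of the zyxin family, was higher by 1.13 and *TLN2* by 1.02, and *PARVB* was lower with -0.72, as log2 fold changes. *LPXN* was called in 5 of 6 fits without a library, and *LPP*, *TLN2* and *PARVB* each in 1 of 6, the one without DMSO day 21 replicate 3, in which 26 of 46 listed genes were called against 48.5% of all genes. With the replicate block all 4 were called, among 15 of 46 listed genes (32.6%), against 29.9% of all genes. *LPP* had been lower in FAKi at day 14 (-0.56, adjusted p = 0.00548 in edgeR), so its sign differed between days 14 and 21, as with *PTK2B*. Its change between the days was 1.67 (adjusted p = 0.000456 in edgeR). That comparison was added after the daily values had been seen. It describes the turn of *LPP* and is not independent support for it. In it 9 of 46 listed genes were called, or 19.6%, against 12.7% of all genes.

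In DMSO over 21 days, 28 of 45 listed genes were called, or 62.2% against 44.9% of all genes, 7 higher and 21 lower, with a median log2 fold change of -0.45 against 0.03 over all genes. Without DMSO day 21 replicate 3, 41 of 45 were called against 69.7% of all genes. Without any other of the 6 libraries 9 to 15 were called, against 24.4% to 29.1% of all genes. By group, 5 of 7 Src kinases and phosphatases were lower, among them *PTPN11* (the phosphatase SHP2, -1.39) and *YES1* (-0.70). Of the actin linkers, 7 of 8 were called, 5 lower and 2 higher, with *ENAH* at -1.26. Of the adaptors and GTPase regulators 6 of 11 were called and all were lower, with *ASAP1* at -1.63 and *DOCK1* at -1.13. The zyxin family was mixed, with *TRIP6* (1.02) and *WTIP* (0.73) higher and *LPP* (-0.57) lower. *PARVB*, a partner of ILK, was higher (0.74), as was *ILK*, while *RSU1* was lower (-0.62). The genes other than the members and those of the naming rule were chosen here after their values were seen.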

How the data were processed

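mRNA libraries of 92.1 cells (Illumina TruSeq Stranded kit, per the labels) were sequenced by the authors in 27 samples, 3 per group. The submitters' processing notes name Trim Galore, FastQC 0.11.8, STAR 2.5.3a, HOMER, DESeq2 and hg38. The deposited values are whole-number counts that the authors made with HOMER on the exons of a single GENCODE 39 transcript per gene, without normalization, per the file headers. The strand setting and the treatment of multi-mapping reads are not given in the sources used here. All columns were matched to samples by label, with 0 left over.

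The members and lists were chosen with earlier results of these data known. After removal of genes with under 20 counts in total and TMM scaling, edgeR 4.0.16 in R 4.3.3 (glmQLFit, glmQLFTest, two-sided) was run on the 6 libraries of a day or of DMSO at days 0 and 21, on 24 libraries for the mean effect of 4 days, and on 12 for a change between days, with Benjamini-Hochberg adjustment over all genes tested. edgeR took the place of DESeq2, which the study used and which was run as an alternative (version 1.42.0). The threshold for a call was an adjusted p of 0.05 or less. The standard error is the size of the log2 fold change divided by the square root of F, and 95% intervals use the t distribution with the degrees of freedom of the fit. CPM and RPKM used TMM over all 27 libraries and the deposited transcript length, with 0.5 CPM added only for logarithms in distances and patterns. The pipeline was run on simulated counts with the same dispersion for all genes. What was required was that the size of a set change be recovered, and libraries that stand apart were not simulated.

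Named genes were the 10 members, up to 5 called list genes per direction in the mean effect and at day 21 with a mean of at least 1 CPM, and the 5 genes most like *PTK2*. Replicate numbers were taken from the titles and equal a tag of unnamed meaning in all 27 libraries. Same-numbered libraries deviated together at day 21 (r from 0.135 to 0.650 over 17012 genes) and not on the other days (r from -0.147 to 0.111), so the block is given beside day 21. As alternatives, RLE scaling, upper quartile scaling, no count filter, DESeq2, all 27 libraries in a single fit, counts thinned to the smallest library, the replicate block and each library left out in turn were run. The comparison of days 14 and 21, and the mean effect without both FAKi day 7 replicate 1 and DMSO day 3 replicate 1, were added after seeing the data.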

Additional observations from a re-analysis of the deposited data

Results flagged for a closer look

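The effect of FAKi on *PTK2B* differed between days 14 and 21 by a test of the difference itself, an interaction term in edgeR over the 12 libraries of both days. The log2 fold change of FAKi over DMSO was -0.34 at day 14 and 0.88 at day 21, a change of 1.19 with a standard error of 0.27 and an adjusted p of 0.00883, and all 3 FAKi libraries were below all 3 DMSO libraries at day 14 and above them at day 21. Between those days the level of *PTK2B* went from 11.5 ± 0.507 to 6.002 ± 1.29 CPM in DMSO and from 9.13 ± 0.326 to 10.7 ± 2.16 CPM in FAKi (SD, n = 3). The days were chosen after the daily values had been seen.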

How the results depend on the processing

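No value of a called member reversed its sign in any of the 1350 refitted values of members. In 75 of them the sign differed from that of the main fit, in values called in neither fit. Over all 1350 values, 50 calls were lost and 30 gained. The number of members called stayed the same under every alternative other than single left-out libraries for day 3 (0), day 7 (0) and the changes from day 3 to 21 (0) and from day 14 to 21 (1). For DMSO over time it was 5 under each of them except 7 with all 27 libraries. In that fit 37.2% of all genes were called, against 44.9% in the main fit. At day 14 it was 0 in place of 1 with all 27 libraries in a single fit. At day 21 it was 2 with all 27 libraries and 3 with the replicate block, in place of 1. For the mean effect it was 2 (*PTK2B* and *ZYX*) with RLE scaling, with DESeq2, with all 27 libraries and with the replicate block, and 0 with no count filter, in place of 1. Of all genes, 16%, 19.7%, 18.3%, 17.4% and 12.2% were called in these fits in that order, against 15.7% in the main fit. Leaving out each library gave 0 to 1 members at day 3, 0 at day 7, 0 to 1 at day 14, 0 to 6 at day 21, 0 to 3 for the mean effect, 0 to 1 from day 3 to 21 (1 without DMSO day 21 replicate 3, *TLN1*), 1 to 5 from day 14 to 21 (5 without that library) and 0 to 9 for DMSO over time. The calls over all genes in the same fits ran from 0 to 7109, 0 to 645, 1396 to 3127, 52 to 11052, 3169 to 6849, 159 to 2534, 1713 to 7578 and 5307 to 15124. The replicate block changed no other count of members. With DMSO day 21 replicate 3 left out, its group has 2 libraries. The count over all genes moved more. It was 0 at day 3 against 3204 with no filter, 1838 with DESeq2, 2575 with all 27 libraries and 6 with thinned counts. At day 7 it was 6 against 449, 210 and 152 under the first 3 of these and 0 with the block, at day 14 2918 against 1553 with all 27 libraries, and at day 21 2692 against 4644, 4782 and 5413 under the first 3 and 6930 with the block. For the change from day 3 to 21 it was 745 against 1786, 1881 and 1384, and from day 14 to 21 3294 against 5093 with the block. The lowest library of *PTK2B* had 82 counts, and for that gene counting noise was not separated from the spread between replicates.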
